A study of Rattus norvegicus with 36 samples.

Results

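The genes described are 34 lysosomal hydrolases, their cofactors and lysosomal membrane proteins, chosen by gene symbol and followed in cultured rat alveolar macrophages loaded with particles. The cathepsins B to Z and the proton pump were kept apart and serve as comparison lists. Of the 34 symbols, 33 had an entry among the 23487 genes of the count table, and all 33 were among the 14498 genes with enough counts to be tested. Sgsh was not analysed here. The listed genes fall into 5 roles, with 7 that break down glycosaminoglycans, 6 that act on oligosaccharides and glycogen, 9 that act on sphingolipids and neutral lipids, 4 peptidases and thioesterases, and 8 membrane proteins.

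The cells were primary alveolar macrophages of male F344/HanZtmRj rats, kept for 5 days in medium that held 10% fetal bovine serum, with an exposure of 4 days. The particles were the carbon black Printex90 and 3 titanium dioxides named G1-1, G3-1 and Bayertitan. All were applied in an overload and in a non-overload condition, each with a control group of its own, which made 12 groups of 3 libraries and 36 libraries in all. The sources used here do not state which dose each condition stands for. The replicates are named biological, but nothing says whether they came from separate animals, so p-values measure the spread between libraries, which may be technical in part. The overload groups were set against their own controls to ask how particle overload changes these genes.

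Lysosomes are the acidic compartments in which a macrophage digests what it has engulfed. Soluble hydrolases cut glycosaminoglycans, glycans, lipids and proteins into small units, while heavily glycosylated membrane proteins such as Lamp1, Lamp2 and Cd68 line the compartment and transporters export the products. Many lysosomal genes carry in their promoters an E-box that can be bound by TFEB, TFE3 and MITF, factors that raise lysosomal gene expression when they enter the nucleus. Particles such as carbon black and titanium dioxide cannot be digested and stay in these compartments.

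Library totals ran from 22274300 to 37131500 estimated counts. Of 8 alveolar macrophage markers, 7 (Mrc1, Itgax, Pparg, Fabp4, Lyz2, Csf1r and Siglec1) were present in every library, while Marco, a scavenger receptor that alveolar macrophages normally express, reached at most 0.353 CPM (counts-per-million) and was at 0 in 5 libraries. Lyz2 lay at 9950 to 16300 CPM, and the next highest, Fabp4, reached at most 1460 CPM. Sums over this list, given further on, thus mostly follow Lyz2, while its mean log2 (CPM + 1) weighs the markers alike. T cell, erythroid and neutrophil markers were low, none above the 9.07 CPM of Csf3r, with Cd3e at most 0.345 CPM and Mpo at most 0.0683 CPM. The B cell gene Cd79a lay at 2.21 to 5.13 CPM and the endothelial gene Cdh5 at 10.5 to 26.4 CPM, both present in every library. All 6 epithelial markers were present in every library, Epcam at 39.1 to 195 CPM and Krt8 at 306 to 663 CPM. The fibroblast collagen Col3a1 reached 13.1 to 651 CPM in 15 libraries, while the other 21 had 1 count at most. These are bulk samples, so fewer macrophages in a culture and less of an RNA in each macrophage cannot be told apart.

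The promoters of the genes were read for the E-box CACGTG, which is its own reverse complement and so reads alike on both strands, and for a longer form with T before and A after it, which contains the shorter one. RefSeq promoter sequences of the GRCr8 assembly (250 bases before to 50 after the start) were matched by symbol for 28 of the 34 genes, 27 of them measured. CACGTG stood in 7 of the 27 measured promoters (25.9%), against 6.42% of the 33469 promoters of the table, and the longer form in 3 (11.1%), against 0.777%. These shares are descriptions, and a match is not shown to be bound here. The 33469 promoters were not limited to tested genes, so the sets compared are not matched for expression. The 5 windows shown belong to genes whose transcripts passed a test described further on or that hold the longer form. Each reads 5′ to 3′ on the gene's strand, with the E-boxes in capitals, and a capital T and A around one mark the longer form. Lamp1 (chr16:83075066-83075276, minus strand) holds 5 E-boxes, from 183 to 38 bases before the start, 2 of them of the longer form. Gaa (chr10:105028258-105028323, plus strand), Galc (chr6:123245560-123245609, minus strand) and Tmem175 (chr14:1234173-1234238, minus strand) each hold 1, and Cln3 (chr1:190597932-190598025, minus strand) holds 2.
Lamp1: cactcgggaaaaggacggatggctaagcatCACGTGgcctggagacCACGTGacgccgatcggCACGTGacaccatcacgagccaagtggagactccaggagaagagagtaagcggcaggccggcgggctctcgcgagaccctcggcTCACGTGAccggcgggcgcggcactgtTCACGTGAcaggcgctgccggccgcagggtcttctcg
Gaa: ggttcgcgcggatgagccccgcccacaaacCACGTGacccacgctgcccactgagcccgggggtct
Galc: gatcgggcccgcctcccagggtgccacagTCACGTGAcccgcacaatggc
Tmem175: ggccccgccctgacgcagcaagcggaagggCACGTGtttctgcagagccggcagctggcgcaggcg
Cln3: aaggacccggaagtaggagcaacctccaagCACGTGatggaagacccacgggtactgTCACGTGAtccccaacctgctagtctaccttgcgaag
The other measured genes with a match were Glb1 and Idua. The 300 bases of Cd68, Naglu, Lamp2, Lgmn, Gusb, Ctsa and Slc17a5 did not contain these letters. Neither did those of Ids, Gla, Smpd1, Ctns, Galns and Manba, whose transcripts also passed a test described further on. No promoter was matched for Hexa, Arsb, Psap and Ppt1, which passed a test too, nor for Arsa and Asah1.

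Together the 33 genes held 1.78 to 2.62% of a library's counts. By particle, their share was 2.27 ± 0.242% in Printex90 overload and 2.00 ± 0.199% in its controls, 2.21 ± 0.108% in G1-1 overload and 2.27 ± 0.203% in its controls, 2.36 ± 0.134% in G3-1 overload and 2.38 ± 0.0628% in its controls, and 2.46 ± 0.146% in Bayertitan overload and 2.15 ± 0.151% in its controls (SD, n = 3 each). The gap between overload and control means exceeded the SD of either group for Printex90 and for Bayertitan. In Bayertitan the 3 overload libraries (2.42, 2.62 and 2.33%) all lay above the 3 controls (2.23, 2.23 and 1.97%). Printex90 overload libraries held 2.06, 2.53 and 2.20%, against 1.78, 2.07 and 2.16% in controls, and these overlapped. In the libraries at the extremes the share ran against the level of epithelial markers. The mean log2 (CPM + 1) of the 6 epithelial genes was highest, at 7.96, in Printex90 control replicate 1, which had the lowest share of the lysosomal genes (1.78%). It was lowest, at 5.93, in G3-1 non-overload replicate 1 (2.57%), and it was 6.16 in Bayertitan overload replicate 2, which had the highest share (2.62%). Other libraries departed from this. G3-1 overload replicates 2 and 3 had epithelial levels of 6.26 and 6.27 with shares of 2.25 and 2.32%. G3-1 non-overload replicate 2 had a level of 7.51 with a share of 2.285%.

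**Figure D1:**
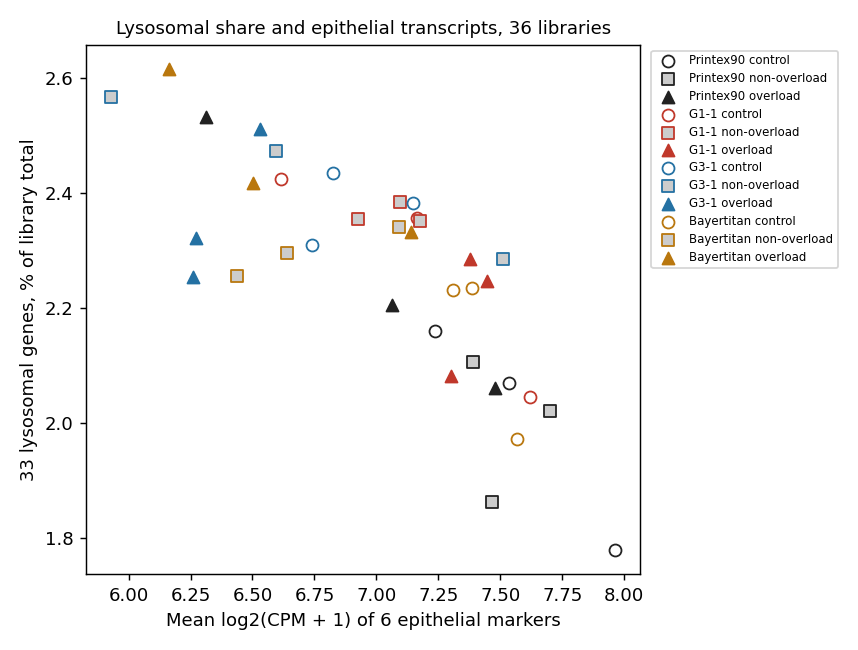
Share of each library's counts held by the 33 genes (y axis, percent) against the mean log2 (CPM + 1) of 6 epithelial markers (x axis), 1 point per library. Colours mark the particle and symbols the condition. Printex90 control replicate 1, with the highest epithelial level and a share of 1.78%, lies at the lower right.

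With Printex90 overload 7 of the 33 genes were higher than in the controls and 0 lower. The 7 were Cd68, Naglu, Ctsa, Hexa, Gaa, Lamp2 and Lamp1, with log2 fold changes of 0.25 to 0.44 in edgeR's quasi-likelihood test with Benjamini-Hochberg adjustment over all tested genes at a threshold of 0.05. Over all tested genes 7.99% were called in this comparison, and 5.15% were called higher. The median log2 fold change of the 33 genes was 0.21, against −0.01 over all tested genes, and 32 of 33 were above 0. By role, 1 of 6 genes of glycosaminoglycan breakdown, 1 of 6 of oligosaccharide and glycogen breakdown, 1 of 9 of sphingolipid and neutral lipid breakdown, 1 of 4 peptidases and thioesterases and 3 of 8 membrane proteins passed. In 8 genes all 3 overload libraries lay above all 3 controls, which held for 12.8% of all tested genes.

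Cd68, a heavily glycosylated lysosomal membrane protein used as a macrophage marker, had 645, 873 and 683 CPM in Printex90 overload libraries, against 483, 573 and 566 CPM in Printex90 controls. The groups did not overlap, and overload replicate 2 was the highest of the 6. Its log2 fold change was 0.44 (SE 0.099, edgeR adjusted p = 0.00743). Lamp2, a lysosomal membrane protein with a part in chaperone-mediated autophagy, had 719.6, 885 and 779.6 CPM in overload libraries, against 599.8, 665 and 703 CPM in controls. No overload value lay below a control value, and the log2 fold change was 0.28 (SE 0.083, edgeR adjusted p = 0.0401). Its relative Lamp1, whose promoter is shown above, stood at 1533, 1889 and 1604 CPM with overload, against 1304, 1438 and 1495 CPM in controls, also without overlap (log2 fold change 0.25, SE 0.075, edgeR adjusted p = 0.0412). The transporters Ctns, which exports cystine, and Slc17a5, which exports sialic acid, had log2 fold changes of 0.18 and 0.15 that did not pass (edgeR adjusted p = 0.0536 and 0.165). Scarb2, the receptor that carries glucocerebrosidase to lysosomes, stood at 0.16 (edgeR adjusted p = 0.245).

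Among the soluble enzymes, Naglu, which removes N-acetylglucosamine from heparan sulfate, had 108, 147 and 117 CPM in Printex90 overload libraries, against 85.9, 95.1 and 100.4 CPM in controls. These did not overlap, and the log2 fold change was 0.40 (SE 0.094, edgeR adjusted p = 0.00924). Gaa, the acid alpha-glucosidase that breaks down glycogen, had 328, 420.0 and 348 CPM in overload libraries, against 267, 317 and 313 CPM in controls, with a log2 fold change of 0.29 (SE 0.084, edgeR adjusted p = 0.0353). All overload libraries were above all controls. Hexa, the alpha subunit of the hexosaminidase that acts on GM2 ganglioside, had 327, 445 and 356 CPM with overload, against 253, 295 and 333 CPM in controls, a log2 fold change of 0.36 (SE 0.098, edgeR adjusted p = 0.0251). Here control replicate 3 lay above overload replicate 1. Ctsa, the protective protein that stabilises beta-galactosidase and neuraminidase, averaged 1191 ± 216 CPM in overload libraries and 917 ± 130.2 CPM in controls (SD, n = 3 each; log2 fold change 0.38, SE 0.11, edgeR adjusted p = 0.0415).

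Several abundant members did not pass in edgeR with Printex90 overload, although DESeq2 called Psap. Psap, the precursor of the saposins that help hydrolases reach sphingolipids, had 7288, 9779 and 7790.0 CPM in overload libraries, against 5806, 7152 and 7337 CPM in controls (log2 fold change 0.29, SE 0.1, edgeR adjusted p = 0.0771). Lgmn, the asparaginyl endopeptidase legumain, had 1793, 2442 and 1987 CPM with overload, against 1552, 1801 and 1945 CPM in controls (0.23, SE 0.098, edgeR adjusted p = 0.138). Lipa, the acid lipase that releases cholesterol and fatty acids, had 1658, 2217 and 1852 CPM with overload, against 1427, 1694 and 1866 CPM in controls (0.20, SE 0.12, edgeR adjusted p = 0.29). In all 3 genes the overload and control libraries overlapped.

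The Printex90 calls rest on few libraries. No member was called without control replicate 1 or without overload replicate 2. Leaving out control replicate 2 gave 3 calls, leaving out control replicate 3 gave 14 and leaving out overload replicate 1 gave 21. For these fits, and for the alternative fits further on, the share of all tested genes called is not given here. Their changes in count are thus not shown to be particular to the members. The 6 epithelial markers summed to 797 to 1545 CPM in the Printex90 overload libraries and 1315 to 1944 CPM in its controls, all 6 had negative log2 fold changes and none was called. The fibroblast markers (5 of 6 in the table) summed to 25.3 to 25.6 CPM with overload and 25.7 to 87.4 CPM in controls. The alveolar macrophage markers summed to 15272 to 20084 CPM with overload and 13239 to 16730.0 CPM in controls, which overlapped, and their mean log2 (CPM + 1) was 8.30 with overload and 8.11 in controls, a difference of 0.19. The endothelial markers summed to 24.2 to 31.3 CPM with overload and 18.5 to 21.6 CPM in controls, without overlap. The part of these 2 lists in the member calls was not tested. With the mean log2 level of the epithelial markers as a covariate, 1 member passed, Cd68 (log2 fold change 0.31, SE 0.087, edgeR adjusted p = 0.0463), and the median of the 33 was 0.10.

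**Figure D2:**
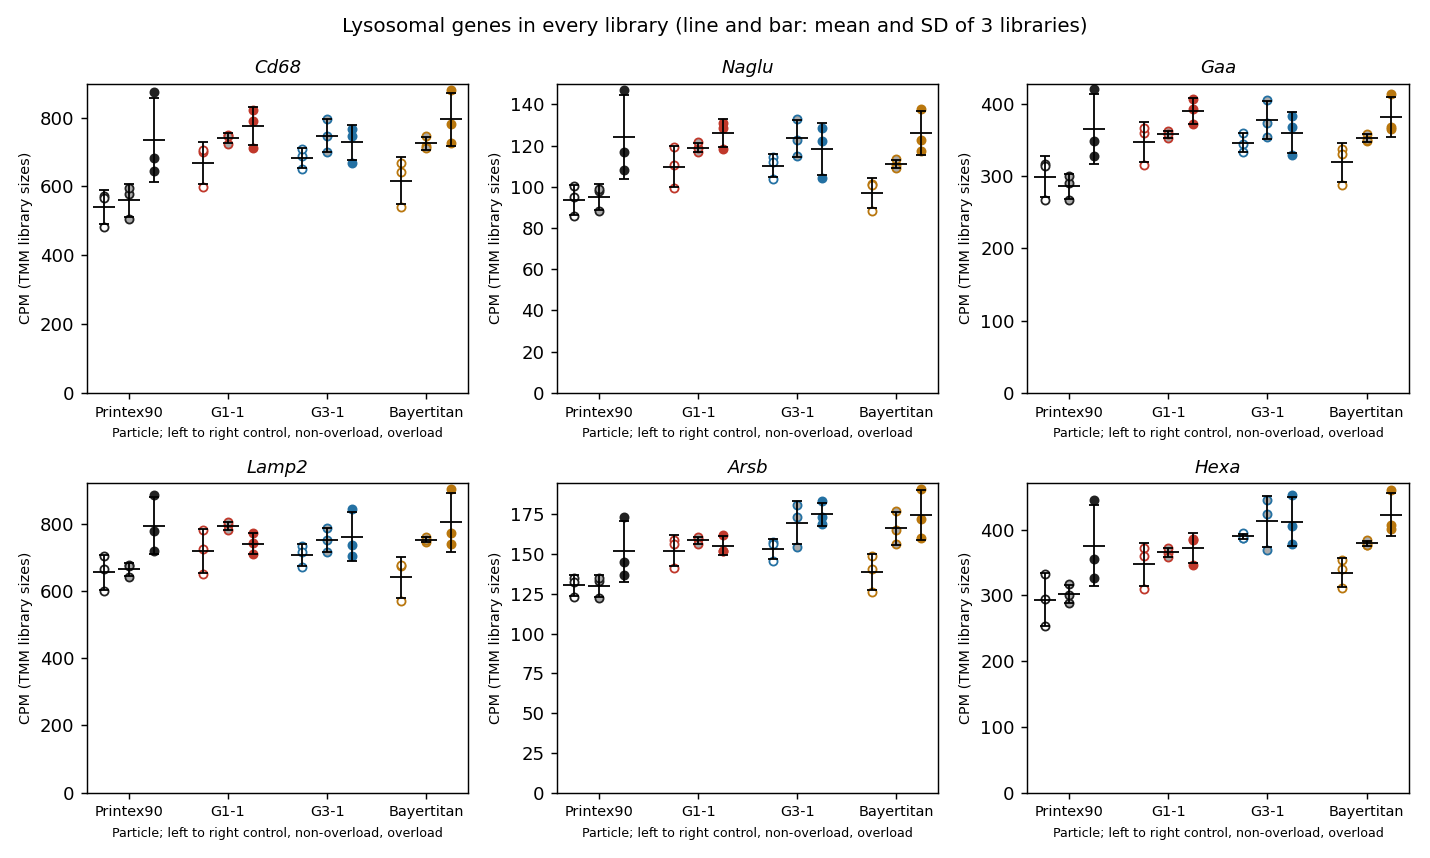
Expression of Cd68, Naglu, Gaa, Lamp2, Arsb and Hexa in every library (y axes, CPM), by particle and, from left to right, control, non-overload and overload condition. Points are libraries, horizontal lines group means and error bars SD, and in Printex90 the overload libraries of Cd68 (645 to 873 CPM) lie above its controls (483 to 573 CPM).

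With Bayertitan overload 10 of the 33 genes were higher than in the controls and 0 lower, by edgeR's test. Over all tested genes 9.84% were called, and 5.74% were called higher. The 10 were Gusb, Naglu, Arsb, Gaa, Hexa, Galc, Lgmn, Lamp2, Cd68 and Slc17a5, with log2 fold changes of 0.22 to 0.44. The median of the 33 genes was 0.24, against 0.01 over all tested genes, and all 33 were above 0. In 28 genes the 3 overload libraries lay above the 3 controls, against 16.8% of all tested genes. By role, 3 of 6 genes of glycosaminoglycan breakdown passed, with 1 of 6 of oligosaccharide and glycogen breakdown, 2 of 9 of sphingolipid and neutral lipid breakdown, 1 of 4 peptidases and thioesterases and 3 of 8 membrane proteins. With Printex90, which has other controls, it shared 5 called genes (Naglu, Gaa, Hexa, Lamp2 and Cd68), 71.4% of the Printex90 calls and 50% of the Bayertitan calls. Over all tested genes 429 were called in both, 37% of the Printex90 calls and 30.1% of the Bayertitan calls.

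Arsb, the sulfatase that removes sulfate from dermatan and chondroitin sulfate, had 172, 191 and 160.1 CPM in Bayertitan overload libraries, against 141, 148 and 126 CPM in Bayertitan controls. The groups did not overlap, and the log2 fold change was 0.33 (SE 0.079, edgeR adjusted p = 0.025). Naglu had 123, 138 and 118 CPM with overload, against 101, 101 and 88.5 CPM in controls (0.38, SE 0.094, edgeR adjusted p = 0.0265). Gusb, the beta-glucuronidase of glycosaminoglycan breakdown, averaged 333 ± 27.7 CPM with overload and 245 ± 24.9 CPM in controls (SD, n = 3 each; 0.44, SE 0.14, edgeR adjusted p = 0.043). All 3 of these genes act on glycosaminoglycans, and in each the overload libraries lay above every control.

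The membrane proteins Lamp2 and Cd68 also passed with Bayertitan overload. Lamp2 had 772, 904 and 739 CPM in overload libraries, against 675, 677 and 571 CPM in controls (log2 fold change 0.33, SE 0.083, edgeR adjusted p = 0.0278). Cd68 had 781, 879 and 726 CPM with overload, against 669, 643 and 539 CPM in controls (0.37, SE 0.099, edgeR adjusted p = 0.0308). In both genes overload replicate 2 was the highest library and control replicate 3 the lowest. Lamp1 did not pass, at 1564, 1739 and 1562 CPM with overload, against 1446, 1479 and 1297 CPM in controls (0.20, edgeR adjusted p = 0.0724), although its groups did not overlap. Hexa had 407, 460.1 and 401 CPM with overload, against 340.5, 353 and 311 CPM in controls (0.34, SE 0.098, edgeR adjusted p = 0.0361). Gaa stood at 365, 414 and 367 CPM with overload, against 338, 331 and 288 CPM in controls (0.26, SE 0.084, edgeR adjusted p = 0.0485). Legumain, unlike in the carbon black comparison, passed the threshold, although the test of a difference between particles did not (given further on). Lgmn had 2184, 2457 and 2037 CPM with overload, against 1856, 1879 and 1592 CPM in controls (0.33, SE 0.098, edgeR adjusted p = 0.0399). Psap (0.28, edgeR adjusted p = 0.0762) and Lipa (0.26, edgeR adjusted p = 0.145) did not pass. Psap averaged 9013 ± 769 CPM with overload and 7424 ± 865 CPM in controls, and Lipa 2086 ± 179.7 CPM with overload and 1745 ± 175 CPM in controls (SD, n = 3 each).

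Without Bayertitan control replicate 3 or without overload replicate 2, no member was called. There were 3 calls without overload replicate 1, 6 without control replicate 1 or without control replicate 2 and 15 without overload replicate 3. The epithelial markers summed to 721 to 1265 CPM in the overload libraries and 1333 to 1632 CPM in the controls, with all 6 log2 fold changes negative and none called, and the fibroblast markers to 20.8 to 876 CPM with overload and 16.3 to 568 CPM in controls. The alveolar macrophage markers summed to 17169 to 20292 CPM with overload and 15094 to 16030.5 CPM in controls, without overlap, and their mean log2 (CPM + 1) was 8.34 with overload and 8.13 in controls, a difference of 0.21. Their part in the member calls was not tested. With the epithelial covariate 0 members passed in edgeR and the median was 0.10, with 31 of 33 above 0.

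In G1-1 overload 0 of the 33 genes passed in edgeR or DESeq2, with 5 at an unadjusted edgeR p under 0.05, while 5.01% of all tested genes were called. The median was 0.01, with 17 genes above 0 and 16 below. Cd68 had 713, 821 and 791 CPM in G1-1 overload libraries, against 701, 706 and 599 CPM in controls, which did not overlap (log2 fold change 0.21, SE 0.099, edgeR adjusted p = 0.267). Gaa had 371, 392 and 407 CPM with overload, against 359, 367 and 315 CPM in controls (0.17, SE 0.084, edgeR adjusted p = 0.307). Lipa lay on the other side of 0, at 1446, 1724 and 1684 CPM with overload, against 2176, 2026 and 1616 CPM in controls (−0.26, SE 0.12, edgeR adjusted p = 0.241). The groups overlapped for Lipa, since control replicate 3 fell among the overload values. Lamp2 (0.04), Lamp1 (0.10), Hexa (0.10), Lgmn (−0.01) and Psap (0.01) had edgeR adjusted p from 0.569 to 0.987. The epithelial markers summed to 1259 to 1358 CPM with overload and 967 to 1553 CPM in controls, with all 6 log2 fold changes above 0. The alveolar macrophage markers summed to 13085 to 14662 CPM in overload and 16012 to 20296 CPM in control libraries, without overlap, and 2 of the 7 tested were called lower. Their mean log2 (CPM + 1) was 8.21 with overload and 8.35 in controls, a difference of −0.14. Their part in the member values was not tested. With the epithelial covariate Cd68 passed (0.26, SE 0.082, edgeR adjusted p = 0.0462) and no other member did.

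G3-1 overload likewise gave 0 of 33 calls in edgeR and DESeq2, with 1 at an unadjusted edgeR p under 0.05, and only 0.117% of all tested genes were called. The median was 0.01. Arsb had 173, 169 and 183 CPM in G3-1 overload libraries, against 158, 156 and 146 CPM in controls, without overlap (log2 fold change 0.19, SE 0.079, edgeR adjusted p = 0.339). Cd68 had 768, 669 and 747 CPM with overload, against 688, 708 and 649.7 CPM in controls (0.09, SE 0.099, edgeR adjusted p = 0.754). The other 7 genes followed throughout (Lamp1, Lamp2, Gaa, Hexa, Lipa, Lgmn and Psap) had log2 fold changes of −0.09 to 0.11 and edgeR adjusted p of 0.631 or more. Epithelial markers summed to 740.1 to 929.8 CPM with overload and 1009 to 1246 CPM in controls, and fibroblast markers to 22.9 to 1636 CPM with overload and 16.6 to 1085 CPM in controls. With the epithelial covariate there were 0 calls and the median was −0.08, with 28 of the 33 genes below 0. With the fibroblast covariate there were 0 calls and a median of 0.05, and without the libraries that held fibroblast collagen, which left 1 overload library, 0 calls and a median of 0.12 with 32 genes above 0. The direction of the median thus depended on the setting.

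**Figure D3:**
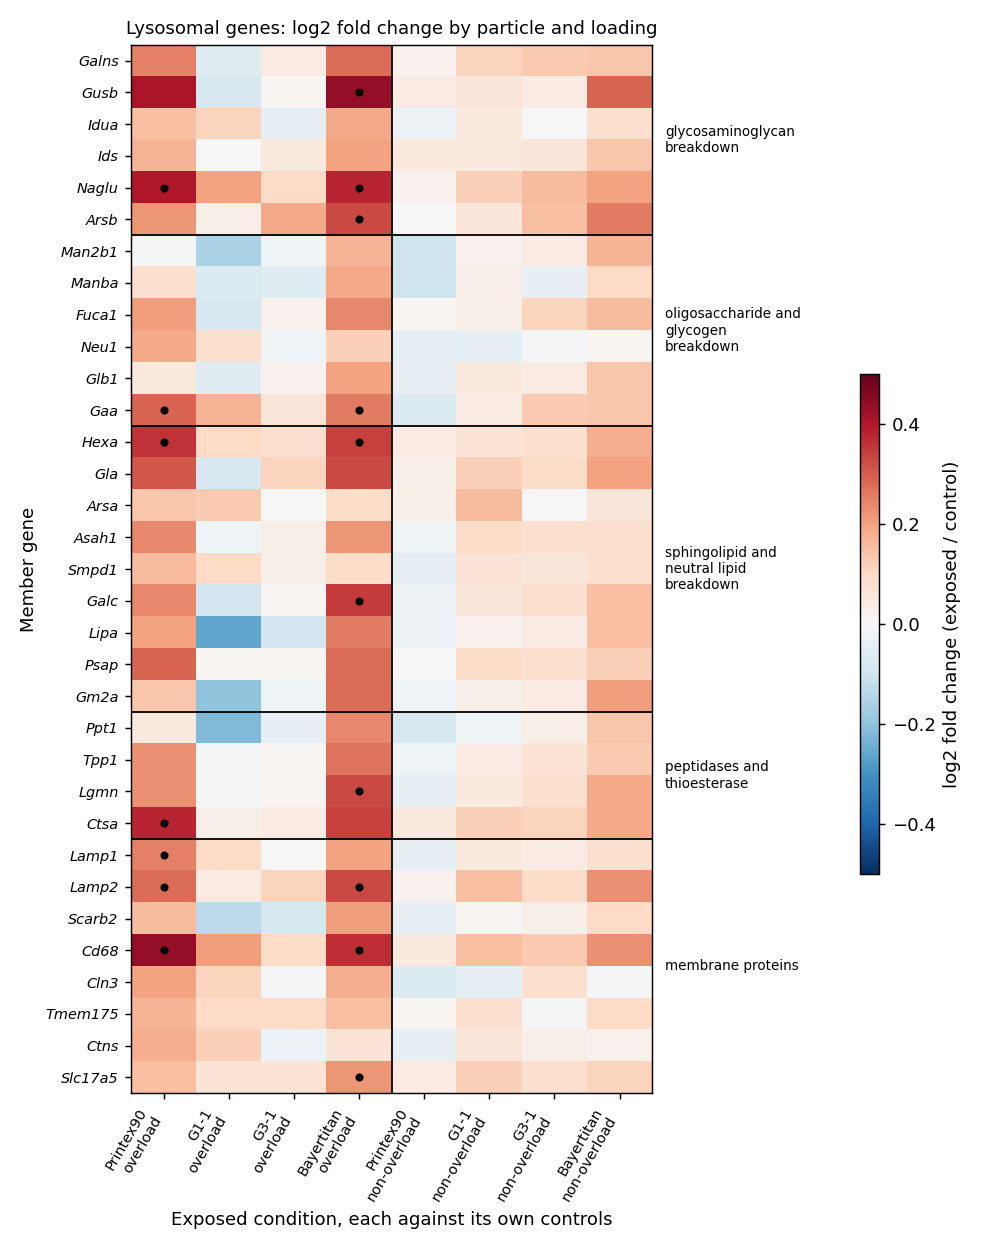
Log2 fold change of each of the 33 genes (rows, grouped by role) in the overload and non-overload groups of the 4 particles against their own controls (columns), with dots on calls at an edgeR adjusted p under 0.05. The dots, 7 in Printex90 overload and 10 in Bayertitan overload, are all on higher values.

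The members not yet described were followed by role in the same comparisons. Among the glycosaminoglycan enzymes, Galns averaged 205 ± 17.7 CPM in Bayertitan overload and 169 ± 21.0 CPM in its controls (SD, n = 3 each; log2 fold change 0.28, edgeR adjusted p = 0.0719), the iduronidase Idua 55.4 ± 5.03 CPM with overload and 48.5 ± 1.24 CPM in controls (0.19, edgeR adjusted p = 0.146), and the iduronate sulfatase Ids 95.1 ± 6.22 CPM with overload and 82.7 ± 5.52 CPM in controls (0.20, edgeR adjusted p = 0.0596). In Printex90 overload the log2 fold changes of Galns, Idua and Ids were 0.25, 0.15 and 0.17, in G1-1 overload −0.06, 0.11 and 0.00, and in G3-1 overload 0.04, −0.05 and 0.05. None of these passed the edgeR test.

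Of the enzymes that trim oligosaccharides, the fucosidase Fuca1 averaged 176 ± 19.8 CPM in Printex90 overload and 152 ± 15.2 CPM in its controls (log2 fold change 0.21, edgeR adjusted p = 0.0935), and 193 ± 10.3 CPM in Bayertitan overload and 163 ± 10.7 CPM in its controls (0.24, edgeR adjusted p = 0.0511; SD, n = 3 each). The neuraminidase Neu1, the beta-galactosidase Glb1, Manba and Man2b1 had log2 fold changes of 0.19, 0.05, 0.08 and −0.01 with Printex90 and 0.12, 0.20, 0.19 and 0.17 with Bayertitan. With G1-1 the same 4 genes stood at 0.08, −0.06, −0.07 and −0.16, and with G3-1 at −0.02, 0.02, −0.06 and −0.02, and none passed.

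Among the lipid-degrading enzymes Galc, which cleaves galactosylceramide and carries the longer E-box 20 bases before its start, passed with Bayertitan overload. It had 91.6, 105 and 85.9 CPM in Bayertitan overload libraries, against 75.5, 76.5 and 69.9 CPM in its controls, without overlap (0.35, SE 0.1, edgeR adjusted p = 0.0384). In Printex90 overload Galc averaged 89.9 ± 13.0 CPM, against 76.1 ± 7.92 CPM in its controls (0.24, edgeR adjusted p = 0.145; SD, n = 3 each). Gla, Asah1, Smpd1 (the acid sphingomyelinase), Arsa (the sulfatide sulfatase) and Gm2a (the GM2 activator) passed in none of the 4 overload comparisons in edgeR. Their log2 fold changes with Printex90 were 0.31, 0.24, 0.16, 0.14 and 0.14, and with Bayertitan 0.33, 0.22, 0.09, 0.09 and 0.28. DESeq2 called Gla with Bayertitan overload. Gm2a, like Lipa, was below 0 with G1-1 overload, at 1986 ± 119 CPM, against 2281 ± 332 CPM in controls (−0.20, SE 0.11, edgeR adjusted p = 0.372).

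Of the peptidases and thioesterases, Tpp1, which removes tripeptides from protein ends, averaged 526 ± 77.1 CPM in Printex90 overload and 449 ± 59.5 CPM in its controls (0.23, edgeR adjusted p = 0.153), and 598 ± 59.7 CPM in Bayertitan overload and 497 ± 45.8 CPM in its controls (0.27, edgeR adjusted p = 0.0766; SD, n = 3 each). Ppt1 stood at 0.05 with Printex90, −0.22 with G1-1, −0.04 with G3-1 and 0.24 with Bayertitan, none of which passed. Of the less abundant membrane proteins, Slc17a5 had 34.8, 36.6 and 34.1 CPM in Bayertitan overload, against 30.8, 29.3 and 30.3 CPM in its controls (0.22, SE 0.069, edgeR adjusted p = 0.0436). Tmem175, a lysosomal potassium and proton channel, stood at 0.17 with Printex90, 0.10 with G1-1, 0.10 with G3-1 and 0.15 with Bayertitan. Cln3, a lysosomal membrane protein mutated in a childhood neurodegenerative disease, stood at 0.20, 0.11, −0.01 and 0.18 for the same 4 particles. Neither passed for any single particle.

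Over all 36 libraries the span of the members was narrow. The highest library was 1.32 times the lowest for Ctns and 2.07 times the lowest for Gusb, with the other 31 genes between. The spread within groups, as the SD of log2 CPM, ran from 0.07 to 0.18 with a median of 0.12. By group mean, 18 members were lowest in Printex90 non-overload, 10 in Printex90 controls, 4 in Bayertitan controls and 1, Lipa, in G1-1 overload. The highest group mean was in Bayertitan overload for 11, in G3-1 non-overload for 11, in G1-1 overload for 4, in Printex90 overload for 3, and in G3-1 overload and G3-1 controls for 2 each.

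The overload effects of the 4 particles were also averaged. On average 17 of the 33 genes were higher and 0 were lower in overload, where 24% of all tested genes were called and 11.9% were called higher. By role, 4 of 6 genes of glycosaminoglycan breakdown, 1 of 6 of oligosaccharide and glycogen breakdown, 4 of 9 of sphingolipid and neutral lipid breakdown, 2 of 4 peptidases and thioesterases and 6 of 8 membrane proteins passed. The median log2 fold change was 0.12, against 0 over all tested genes. By particle, 7 members were called with Printex90, 10 with Bayertitan, 0 with G1-1 and 0 with G3-1. The medians of G1-1 and G3-1, given above, were also smaller than those of Printex90 and Bayertitan. The averaged effect is thus not shown for each particle. The controls differed too. The members held 2.002% of counts in Printex90 and 2.145% in Bayertitan controls, against 2.275% in G1-1 and 2.375% in G3-1 controls. In overload the mean shares were 2.265% for Printex90, 2.455% for Bayertitan, 2.205% for G1-1 and 2.362% for G3-1. The part of the control levels in the counts by particle was not tested. Naglu ranged over 104 to 147 CPM (median 122) in the 12 overload libraries and 85.9 to 119 CPM (median 101) in the 12 control libraries, with a mean log2 fold change of 0.27 (SE 0.047, edgeR adjusted p = 0.000213). Cd68 ranged over 645 to 879 CPM (median 757) with overload and 483 to 708 CPM (median 646) in controls (0.28, SE 0.05, edgeR adjusted p = 0.000288). Both ranges overlapped between conditions.

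Arsb lay at 137 to 191 CPM (median 165) in overload and 123 to 159 CPM (median 143) in control libraries (0.19, SE 0.039, edgeR adjusted p = 0.000992). Gaa lay at 328 to 420.0 CPM (median 369.6) in overload and 267 to 367 CPM (median 332) in control libraries (0.19, SE 0.042, edgeR adjusted p = 0.0017). Lamp2 lay at 705 to 904 CPM (median 757) in overload and 571 to 782 CPM (median 676) in control libraries (0.19, SE 0.042, edgeR adjusted p = 0.00188). The means of these 3 genes differed by more than their standard errors, while their single libraries overlapped. Hexa (0.22, edgeR adjusted p = 0.0022), Lamp1 (0.14, 0.00895), Lgmn (0.14, 0.0376) and Psap (0.15, 0.0388) also passed. Lipa, at 0.03 (SE 0.058, edgeR adjusted p = 0.79), did not, and neither did the alpha-mannosidase Man2b1 at 0.00 (edgeR adjusted p = 0.953) or the thioesterase Ppt1 at 0.01 (edgeR adjusted p = 0.961).

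The count for the averaged effect was 9 without Printex90 overload replicate 2, Bayertitan control replicate 3 or Bayertitan overload replicate 2. It was 10 without Printex90 control replicate 1 or G1-1 overload replicate 2, and 11 without G1-1 control replicate 3 or G3-1 overload replicate 1. Naglu, Arsb, Gaa, Hexa, Ctsa, Lamp1, Lamp2, Cd68 and Slc17a5 were called in all 24 fits that left out 1 overload or control library. Of the 6 epithelial markers 2 were called lower in overload and 0 higher, with a median of −0.38, and of the 7 tested alveolar macrophage markers 4 were called higher and 1 lower, with a median of 0.21. With the epithelial covariate 4 members passed, Naglu (0.19), Cd68 (0.19), Gaa (0.12) and Arsb (0.11), and the median was 0.05. With the 15 libraries that held fibroblast collagen left out, 5 passed (Naglu, Gaa, Hexa, Lamp2 and Cd68), and the median was 0.14 with 32 genes above 0, against 0.12 with all libraries. With the fibroblast covariate 23 passed and the median was 0.13.

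**Figure D4:**
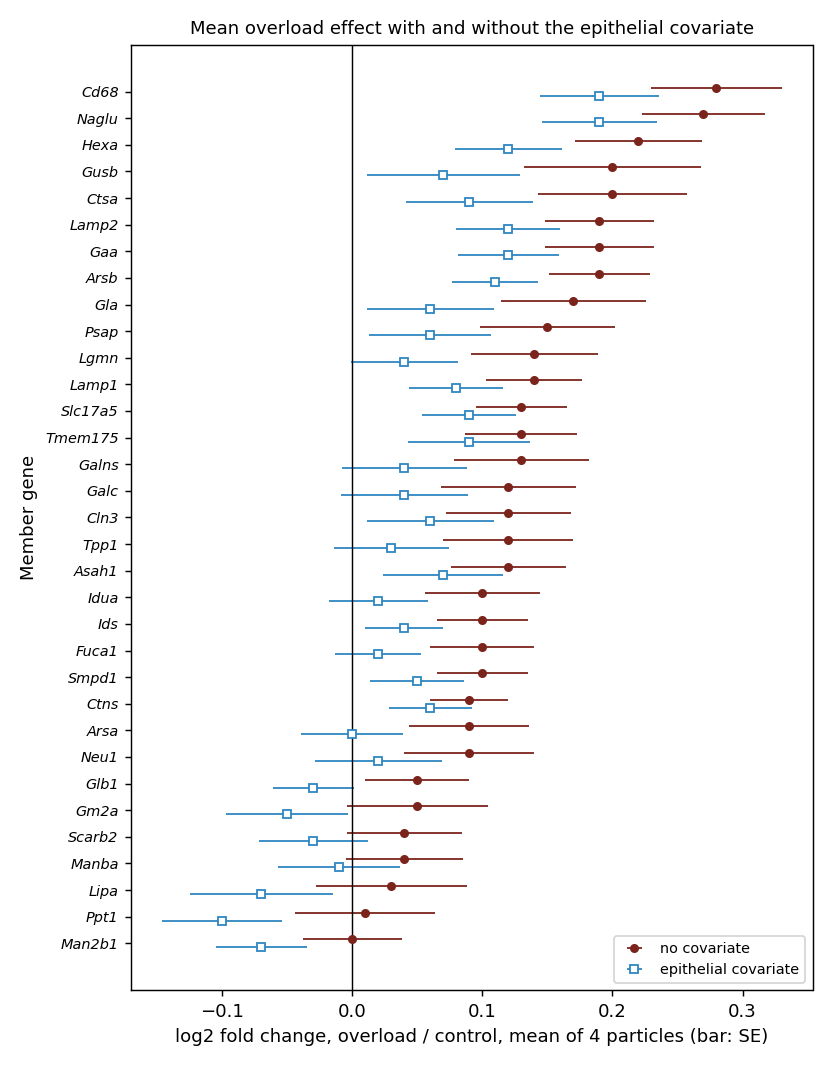
Mean overload effect of each of the 33 genes over the 4 particles (x axis, log2 fold change of overload over control, bars SE) without a covariate (filled circles) and with the epithelial covariate (open squares). The open squares of Cd68 and Naglu lie at 0.19 and those of most other genes closer to 0.

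A test of whether the overload effect differed between the 4 particles called 0 of the 33 genes in edgeR (8 at an unadjusted p under 0.05, 0 in DESeq2), with 1.72% of all tested genes called. Lipa had the lowest adjusted p (0.168), with log2 fold changes of 0.20 for Printex90, −0.26 for G1-1, −0.09 for G3-1 and 0.26 for Bayertitan. In 1 of the 33 genes, Man2b1, overload libraries lay above all controls with 1 particle and below all controls with another, against 5.16% of all tested genes. The adjusted p of this test was 0.303 for Lgmn and 0.351 for Cd68. Carbon black against the mean of the titanium dioxides also gave 0 calls in edgeR and in DESeq2, with 0 members at an unadjusted edgeR p under 0.05 and 0.221% of all tested genes called. The difference in Cd68 was 0.22 (SE 0.11, edgeR adjusted p = 0.605), and the median difference over the 33 genes was 0.13. The counts of 7 and 10 in Printex90 and Bayertitan and of 0 in G1-1 and G3-1 are thus not shown to differ gene by gene.

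In the non-overload groups 0 of the 33 genes passed for any particle in edgeR or DESeq2, where 0% of all tested genes were called for Printex90, 0.0621% for G1-1, 0% for G3-1 and 0% for Bayertitan. Medians were −0.02 for Printex90, 0.06 for G1-1, 0.07 for G3-1 and 0.14 for Bayertitan. Unadjusted edgeR p-values under 0.05 numbered 0, 0, 0 and 6 in that order of particles. Cd68 in the Bayertitan series had 669, 643 and 539 CPM in controls, 747, 717 and 712 CPM in non-overload and 781, 879 and 726 CPM in overload libraries. Its non-overload libraries all lay above the controls, and the lowest overload library lay among the non-overload values. In Bayertitan non-overload 19 of the 33 genes had all 3 libraries above all 3 controls, against 11% of all tested genes. The epithelial markers there summed to 806 to 1307 CPM in non-overload and 1333 to 1632 CPM in control libraries. The alveolar macrophage markers summed to 16691 to 17997 CPM in non-overload and 15094 to 16030.5 CPM in control libraries, without overlap, a difference of 0.14 in mean log2 (CPM + 1). The fibroblast markers summed to 20.7 to 3122 CPM in non-overload and 16.3 to 568 CPM in control libraries, which overlapped. Over the 4 particles the mean non-overload effect gave 0 member calls in edgeR and DESeq2, with 7 at an unadjusted edgeR p under 0.05, a median of 0.06 and 2.75% of all tested genes called.

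Between the loadings, Printex90 overload was higher than Printex90 non-overload in 5 members (Naglu, Gaa, Lamp1, Cd68 and Ctns) and lower in 0, with 1.59% of all tested genes called and 1.26% called higher. The median of the 33 genes was 0.23. Gaa had 328, 420.0 and 348 CPM in overload, against 267, 290.4 and 299.7 CPM in non-overload libraries (0.35, SE 0.084, edgeR adjusted p = 0.0338). Naglu had 108, 147 and 117 CPM in overload, against 88.1, 98.1 and 99.1 CPM in non-overload libraries (0.38, SE 0.094, edgeR adjusted p = 0.0387). Cd68 had 645, 873 and 683 CPM in overload, against 505, 578 and 594 CPM in non-overload libraries (0.39, SE 0.099, edgeR adjusted p = 0.0414). In all 3 genes the overload libraries lay above every non-overload library. These overload libraries are the ones also set against the controls, so the comparisons are not independent. With the epithelial covariate the calls were 0. Leaving out non-overload replicate 1 or overload replicate 2 also gave 0 calls, leaving out non-overload replicate 2 gave 1, leaving out overload replicate 3 gave 3, and leaving out overload replicate 1 gave 19.

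For the titanium dioxides 0 members passed between overload and non-overload in edgeR and DESeq2. In G1-1 the median was −0.06, 3 genes had an unadjusted edgeR p under 0.05, and 13 genes had all overload libraries below all non-overload libraries while 3 had them above. Such separation held for 14% of all tested genes in the lower and 13.3% in the higher direction, and 1.95% of all tested genes were called. The alveolar macrophage markers summed to 13085 to 14662 CPM in G1-1 overload and 18763 to 19411 CPM in G1-1 non-overload libraries, without overlap, with 2 of 7 called lower, and their part in the member values was not tested. Their mean log2 (CPM + 1) was 8.21 in G1-1 overload and 8.46 in G1-1 non-overload libraries. In G3-1 the median was −0.06 with 0 genes at an unadjusted p under 0.05, and in Bayertitan it was 0.11 with 0 at that level and all 33 above 0. In both, 0% of all tested genes were called. Counting Printex90 too, 5 of the 33 genes (Fuca1, Gla, Asah1, Lamp2 and Scarb2) had overload libraries above all non-overload libraries with 1 particle and below them with another, against 6.64% of all tested genes. The mean over the 4 particles gave 0 member calls in edgeR (8 unadjusted) and 1 in DESeq2, Gaa, with 0.91% of all tested genes called in edgeR.

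The 4 control groups, which received no particles, differed in 3 of the members, Galns, Manba and Ppt1, in an edgeR F test that called 5.59% of all tested genes. Galns, the sulfatase of keratan and chondroitin sulfate, had 117, 145 and 139 CPM in Printex90 controls, 171, 175 and 144 CPM in G1-1 controls, 206, 196 and 189 CPM in G3-1 controls and 184, 178 and 145 CPM in Bayertitan controls (edgeR adjusted p = 0.0106). Manba, the beta-mannosidase, had 54.3, 63.9 and 67.6 CPM in Printex90 controls, 74.4, 71.1 and 62.5 CPM in G1-1 controls, 84.5, 82.1 and 76.7 CPM in G3-1 controls and 65.2, 68.8 and 64.2 CPM in Bayertitan controls (edgeR adjusted p = 0.0316). Ppt1, which removes palmitate from proteins, had 313, 399 and 441 CPM in Printex90 controls, 497, 471 and 395 CPM in G1-1 controls, 559, 518 and 512 CPM in G3-1 controls and 446, 451 and 419.8 CPM in Bayertitan controls (edgeR adjusted p = 0.0447). In all 3 genes every G3-1 control lay above every Printex90 control, and the means of the G1-1 and Bayertitan controls lay between. This separation was not particular to the called genes. It also held for uncalled members such as Naglu, Hexa and Cd68, though not for Lamp1 or Lamp2. Cd68 lay at 650 to 708 CPM in G3-1 controls and 483 to 573 CPM in Printex90 controls. The share of all tested genes with this separation is not given here. The epithelial markers summed to 1315 to 1944 CPM in Printex90 controls and 1009 to 1246 CPM in G3-1 controls, without overlap, and with the epithelial covariate Galns passed while Manba and Ppt1 did not. The count was 0 without Printex90 control replicate 1, 1 without G3-1 control replicate 1, G3-1 control replicate 2 or Bayertitan control replicate 3, and 6 without G1-1 control replicate 3 or Printex90 control replicate 3.

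Other genes of the lysosome were counted beside the members in the averaged overload effect, with the same 24% of all tested genes called and 11.9% called higher. Of 9 cathepsins tested 6 were higher and 2 lower, of 17 proton pump subunits and accessory proteins 14 were higher and 1 lower, and of 21 other hydrolases and cofactors 13 were higher and 0 lower. Of 14 other membrane proteins 5 were higher and 0 lower, of 9 enzyme sorting genes 3 and 0, and of 9 TFEB-family factors and regulators 5 and 1. Medians ran from 0.06 for enzyme sorting to 0.17 for cathepsins and for the proton pump. With G1-1 overload these 6 lists held 3 higher and 4 lower calls, where 5.01% of all tested genes were called. With G3-1 overload they held 0 calls in edgeR, where only 0.117% of all tested genes were called.

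Ctsd, the main lysosomal aspartic protease, averaged 11866 ± 1126 CPM in overload and 9842 ± 703 CPM in control libraries (SD, n = 12 each), a log2 fold change of 0.27 (SE 0.041, edgeR adjusted p = 5.29e-05). Ctsb, a cysteine protease, stood at 0.28 (edgeR adjusted p = 0.000115), while Ctsc, which activates serine proteases of granules, fell by 0.26 on the log2 scale (edgeR adjusted p = 0.000143). Atp6v0d2, a proton pump subunit, averaged 237 ± 31.5 CPM in overload and 189 ± 28.4 CPM in control libraries (0.33, edgeR adjusted p = 0.000137). Naaa, which degrades N-acylethanolamines, averaged 325 ± 23.3 CPM in overload and 261 ± 33.1 CPM in control libraries (0.32, edgeR adjusted p = 9.36e-06). Cd63, a tetraspanin of lysosomes, stood at 0.21 (edgeR adjusted p = 0.00136) and Igf2r, the large mannose 6-phosphate receptor, at 0.17 (edgeR adjusted p = 0.00612). Among the regulators of TFEB-family factors, Fnip2 averaged 346 ± 49.8 CPM in overload and 258 ± 19.4 CPM in control libraries (0.42, SE 0.051, edgeR adjusted p = 2.71e-06). Its partner folliculin, Flcn, stood at 0.20 (edgeR adjusted p = 0.000732), and Rragc, a GTPase that folliculin acts on, at 0.22 (edgeR adjusted p = 0.000565).

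**Figure D5:**
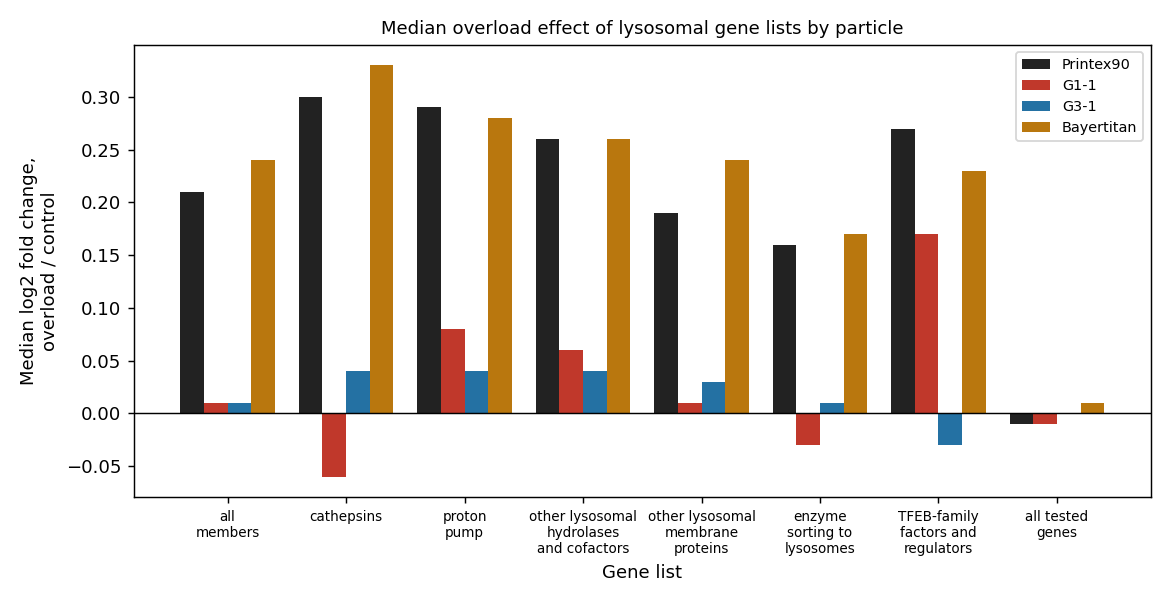
Median log2 fold change of overload over control (y axis) for the 33 genes, 6 other lysosomal gene lists and all tested genes (x axis), with 1 bar per particle. Bars of Printex90 and Bayertitan lie between 0.16 and 0.33 in the lysosomal lists, and those of G1-1 and G3-1 between −0.06 and 0.17.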

How the data were processed

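The table deposited by the authors gives an estimated count for each gene and library, without scaling for depth. The submitters' processing notes name Salmon, FastQC, MultiQC and the rat build Rnor_6.0. Versions, annotation and the step from transcripts to genes are not given in the sources used here. Of the values 47.7% are not whole, so values of genes with near-identical copies rest on a model. Per the labels' protocols, 150 ng of total RNA per sample went into ribosome-depleted libraries.

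Counts were rounded, filtered with filterByExpr by group and normalised by TMM (factors 0.934 to 1.07). All 36 libraries entered 1 quasi-likelihood fit by edgeR 4.0.16 (R 4.3.3) of 12 group means, which left 24 residual degrees of freedom. The fit gave 18 comparisons and was tested on simulated data. The changes set there were larger than those of the called members. The simulation thus does not show how well changes of the members' size are found. P-values were adjusted over 14498 genes with a threshold of 0.05. CPM of members use TMM library sizes, and marker CPM and library shares use column totals. Gene lengths were not used, so levels are not compared between genes. The chi-square per gene between libraries of a group was 6.87 to 53.0, so none were duplicates.

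The members and lists were chosen with earlier results of these data known. Values per library are given for the up to 5 called members of smallest adjusted p in each overload comparison, up to 3 in others and up to 4 in the tests of differences, and for 8 genes described whatever their result; of each other list up to 3 could be named. Other members are given by role, and which of them carry CPM values (among them Gusb, Ctsa, Galc and Arsb in G3-1) was chosen after their values were seen. Alternatives were DESeq2 1.42.0, RLE factors, no filter, a replicate block within particle, fits of 1 particle's libraries, epithelial and fibroblast covariates (mean log2 (CPM + 1) of the markers), and leaving out each library or the 15 libraries with Col3a1 above 5 CPM.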

Additional observations from a re-analysis of the deposited data

Results flagged for a closer look

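Some members lay on opposite sides of 0 with different particles, with no overlap between the libraries compared in either. None of these log2 fold changes passed the edgeR test on its own. DESeq2 called Asah1 and Lamp2 in Printex90 overload against non-overload. For overload against control this held for Man2b1, the lysosomal alpha-mannosidase, at −0.16 with G1-1 and 0.17 with Bayertitan. Over all tested genes 5.16% did so. The edgeR adjusted p of the test for a difference between particles was 0.253.

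Between overload and non-overload, 5 of the 33 members did so, against 6.64% of all tested genes, and these differences between particles were not tested. Fuca1, which removes fucose from glycans, stood at 0.20 with Printex90 and −0.11 with G1-1. Gla, the alpha-galactosidase A, stood at −0.20 with G1-1 and 0.13 with Bayertitan. Asah1, the acid ceramidase, stood at 0.26 with Printex90, −0.11 with G1-1 and 0.14 with Bayertitan. Lamp2 stood at 0.26 with Printex90 and −0.10 with G1-1, and Scarb2 at −0.14 with G1-1 and 0.11 with Bayertitan.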

How the results depend on the processing

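No called member changed sign under any alternative. Counts of called members moved by more than 1.5 times as follows, and the cause was not tested beyond the construction of each alternative. The share of all tested genes called in each alternative is not given here, so these moves are not shown to be particular to the members. DESeq2 called 14 in Printex90 overload against non-overload, 1 in the mean of these comparisons and 7 in the control groups. Without a filter, Printex90 overload had 4, Bayertitan overload 4 and Printex90 overload against non-overload 2. In fits of 1 particle's libraries, with fewer samples, all 3 of these counts were 0. With the epithelial covariate the counts were 1 in Printex90 overload, 1 in G1-1 overload, 0 in Bayertitan overload, 0 in Printex90 overload against non-overload, 4 in the mean overload effect and 1 in the control groups. With the fibroblast covariate they were 18 in Bayertitan overload, 1 in Printex90 overload against non-overload and 6 in the control groups. Without the 15 libraries with fibroblast collagen, which left 1 library each of Printex90 control, G3-1 overload, G3-1 non-overload and Bayertitan non-overload, they were 0 in Printex90 overload, 0 in Bayertitan overload, 0 in Printex90 overload against non-overload, 5 in the mean overload effect and 0 in the control groups; a lone library is assumed to vary like the other groups. The medians were then 0.12 in Printex90 overload (0.21 with all libraries), 0.21 in Bayertitan overload (0.24) and 0.14 in the mean overload effect (0.12). RLE factors moved no count by that much.

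Leaving out 1 library at a time, counts ran from 0 to 21 in Printex90 overload, 0 to 15 in Bayertitan overload, 0 to 19 in Printex90 overload against non-overload, 9 to 25 in the mean overload effect, 0 to 6 in the control groups and 0 to 1 in the mean non-overload effect, and were 0 in the 12 other comparisons. With the replicate number as a block within particle, counts were 12 in Printex90 overload, 21 in Bayertitan overload and 2 in the mean non-overload effect. Correlations of deviations between same-numbered libraries ran from −0.72 to 0.53 and not all were above 0.1, so the main fit did not take the numbers as pairs. These correlations do not settle whether the libraries were paired. The mean correlation was 0.13 in Printex90 (−0.07 between other numbers), −0.02 in G1-1 (0.02), 0.11 in G3-1 (−0.06) and −0.12 in Bayertitan (0.05).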
